A study of Arabidopsis thaliana with 12 samples.

Results

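The cellulose synthase (CESA) family of Arabidopsis thaliana was followed across 4 genotypes by its 10 loci, CESA1 to CESA10, among the 32833 loci of the count files. CESA1, CESA2, CESA3, CESA5 and CESA6 are the 5 primary wall members, CESA4, CESA7 and CESA8 the 3 secondary wall members, and CESA9 and CESA10 the other two. RNA came from the hypocotyl and the uppermost 5 mm of the root of plants aged 3 weeks, grown in long days. Wild type was Columbia-0, er erl2 carried er-105 and erl2-1, pxf carried pxy-3, pxl1-1 and pxl2-1, and pxf er erl2 carried all of these alleles. Each genotype had 3 biological replicates, 12 libraries in all, with no treatment. Nothing in the labels says whether replicates were grown or harvested on separate days, so p-values measure the spread between these samples.

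Cellulose is spun into the cell wall by plasma membrane complexes that hold several kinds of CESA protein. Growing cells use complexes of CESA1, CESA3 and a CESA6-like subunit (CESA6, CESA2, CESA5 or CESA9), whereas xylem vessels and fibres, which lay down a thick secondary wall after they stop growing, use CESA4, CESA7 and CESA8. Loss of any of these last members (irregular xylem mutants irx5, irx3 and irx1) lets vessels collapse. In the thickening hypocotyl, xylem is formed by the vascular cambium, in which the receptor kinases PXY and ER act. CESA9 is known from the seed coat.

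All members share the QxxRW motif, part of the catalytic core that holds the growing glucan chain. The coding sequence around it is shown because it gives the family's likeness at the base level, on which the separate counting of its members rests. In the lines below, taken from RefSeq gene models on assembly TAIR10.1, capitals mark the codons of Q, R and W; each stretch is 63 bases long, and the motif occurred once in each coding sequence.
CESA4: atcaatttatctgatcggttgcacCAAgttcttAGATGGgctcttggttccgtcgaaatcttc
CESA7: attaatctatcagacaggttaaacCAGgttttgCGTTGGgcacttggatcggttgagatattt
CESA8: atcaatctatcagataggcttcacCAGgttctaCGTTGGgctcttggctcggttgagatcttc
CESA1: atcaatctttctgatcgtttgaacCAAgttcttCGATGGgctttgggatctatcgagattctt
CESA3: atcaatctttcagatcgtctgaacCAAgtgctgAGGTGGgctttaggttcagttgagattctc
CESA2: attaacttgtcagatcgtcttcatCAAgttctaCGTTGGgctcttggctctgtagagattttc
CESA5: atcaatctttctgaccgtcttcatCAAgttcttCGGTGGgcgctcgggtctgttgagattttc
CESA6: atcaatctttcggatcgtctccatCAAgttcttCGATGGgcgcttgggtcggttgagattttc
CESA9: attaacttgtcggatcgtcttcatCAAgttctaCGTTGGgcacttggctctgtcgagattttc
CESA10: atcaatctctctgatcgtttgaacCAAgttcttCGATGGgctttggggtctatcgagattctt
Within this stretch, CESA1 differed from CESA10 at 2 bases, CESA2 from CESA9 at 3 and CESA5 from CESA6 at 6. Over the whole aligned coding sequence, the closest pair was CESA5 with CESA6 at 86% identical bases, then CESA2 with CESA9 at 84.7% and CESA1 with CESA10 at 84%. The longest run of identical bases in any pair was 50, in CESA5 and CESA6. How the authors' counting treated reads that match more than 1 place is not given in the sources used here, so small exchanges of counts within these pairs cannot be judged.

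Total counts were 10507590 to 14716123 per library. As a check of the labels, PXY was at 248 to 251 CPM (counts scaled to library size) in wild type and 20.7 to 26.0 in pxf, and ER between 32.6 and 42.7 CPM in wild type and between 8.54 and 11.5 CPM in er erl2. In pxf er erl2, PXY was between 72.6 and 83.8 CPM, higher than in pxf (log2 fold change 1.76, adjusted p = 1.14e-07) and below wild type. ER was between 7.69 and 11.3 CPM there. The other mutated genes had few counts, and the labels cannot be checked from them. From wild type to pxf, PXL1 was at 0.17 to 0.284 and 0.689 to 1.08 CPM, and PXL2 at 0.679 to 1.33 and 0.344 to 0.614. ERL2 was at 0.379 to 0.547 CPM in wild type and 0.263 to 0.488 in er erl2. The tissue held vascular markers: 3 cambium genes summed to 350.1 to 356 CPM and 5 genes of vessel cell death to 387 to 562 CPM in wild type, with none at 0. The library er erl2 replicate 3 stood apart from its group in wall genes. Its CESA4, CESA7 and CESA8 were at 0.519, 0.55 and 0.537 of the mean of er erl2 replicates 1 and 2, while the 5 primary wall members were at 0.943 to 1.07 of it. CESA results of comparisons that include er erl2 are given with and without that library. It also enters the spread of the other comparisons, since 1 fit held all 12 libraries. The secondary wall calls of pxf and pxf er erl2 against wild type are therefore given without it too.

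Per kilobase (kb) of coding sequence, primary wall members led in wild type. CESA3 was highest at 219 ± 13.6 CPM per kb (SD, n = 3), followed by CESA1 at 197 ± 10.9, whose libraries overlapped with those of CESA3. CESA6 followed at 177 ± 8.27, apart from both neighbours in the order. CESA2 at 111 ± 2.65, CESA4 at 107 ± 14.8, CESA7 at 98.6 ± 16.9 and CESA8 at 76.5 ± 7.9 formed a chain in which each overlapped with the next. CESA5 at 62.6 ± 4.27 lay below them, and CESA9 at 6.52 ± 0.476 lay far below CESA5. CESA10 had 2 counts over all 12 libraries and none in 10 of them; a count of 0 allows up to 3 counts, or 0.204 to 0.286 CPM depending on the library, counting error only. In pxf, CESA5 (74.6 ± 3.57 CPM per kb) stood above CESA4 (59.8 ± 2.54), so that all 5 primary wall members were above all 3 secondary wall members with no overlap.

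The secondary wall members were lower in pxf than in wild type, and by nearly the same factor. CESA4 (AT5G44030) was at 364, 294 and 386 CPM in wild type (348 ± 48.0, SD, n = 3) and at 191, 203 and 187 CPM in pxf (193 ± 8.22). CESA7 (AT5G17420) was at 323, 245 and 343 CPM in wild type and at 176, 186 and 161 CPM in pxf. CESA8 (AT4G18780) was at 239, 199 and 241 CPM in wild type and at 131, 137 and 115 CPM in pxf. For each gene, every pxf library lay below every wild-type library, and the wild-type libraries were spread more widely than those of pxf. The fitted log2 fold change was -0.85 for CESA4 (SE 0.212, adjusted p = 0.0187), -0.80 for CESA7 (SE 0.21, adjusted p = 0.0226) and -0.82 for CESA8 (SE 0.207, adjusted p = 0.0186), or 0.556, 0.574 and 0.565 of the wild-type level. Counting both directions, 4 of the 9 tested members passed an adjusted p of 0.05, against 21% of the 19236 genes tested; 3 were lower, against 7.97%, and 1 was higher, against 13%.

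These 3 calls depended on single libraries. Leaving out wild type replicate 1, wild type replicate 3, pxf replicate 1 or pxf replicate 3 ended each of them, with adjusted p of 0.0555 to 0.069 for CESA4, 0.0665 to 0.0853 for CESA7 and 0.0548 to 0.0752 for CESA8. Over all 12 such fits the log2 fold changes stayed between -0.95 and -0.76 for CESA4, -0.93 and -0.70 for CESA7 and -0.91 and -0.75 for CESA8. The spread was estimated from all 12 libraries, so er erl2 replicate 3, of neither compared group, also entered these tests. Without it, adjusted p was 0.000145 for CESA4, 0.000821 for CESA7 and 0.000196 for CESA8, with SE of 0.0946, 0.116 and 0.0968. In a bulk sample, fewer xylem cells and less RNA per xylem cell cannot be told apart. Other cell type markers moved in the same comparison. Over 10 leaf photosynthesis genes the summed level was 1378 to 1965 CPM in wild type and 4733 to 6339.9 CPM in pxf, over 4 phloem genes 316 to 332 and 514 to 635, over 4 periderm suberin genes 107 to 119 and 208 to 306, and over 4 endodermis genes 176 to 337 and 16.2 to 21.5. The endodermis sum was mostly PER64 (mean 259 CPM in wild type, 6.28 in pxf), while MYB36 of that list rose (4.86 to 11.8 CPM, log2 fold change 1.27, adjusted p = 0.000315) and CASP1 and CASP2 were near 0. Of the phloem list, APL, SEOR1 and SEOa rose and SUC2 fell (83.2 to 37.8 CPM, -1.14, adjusted p = 0.0111). None of the listed genes was at 0 in all libraries of either group, and their part in the CESA values was not tested.

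**Figure D1:**
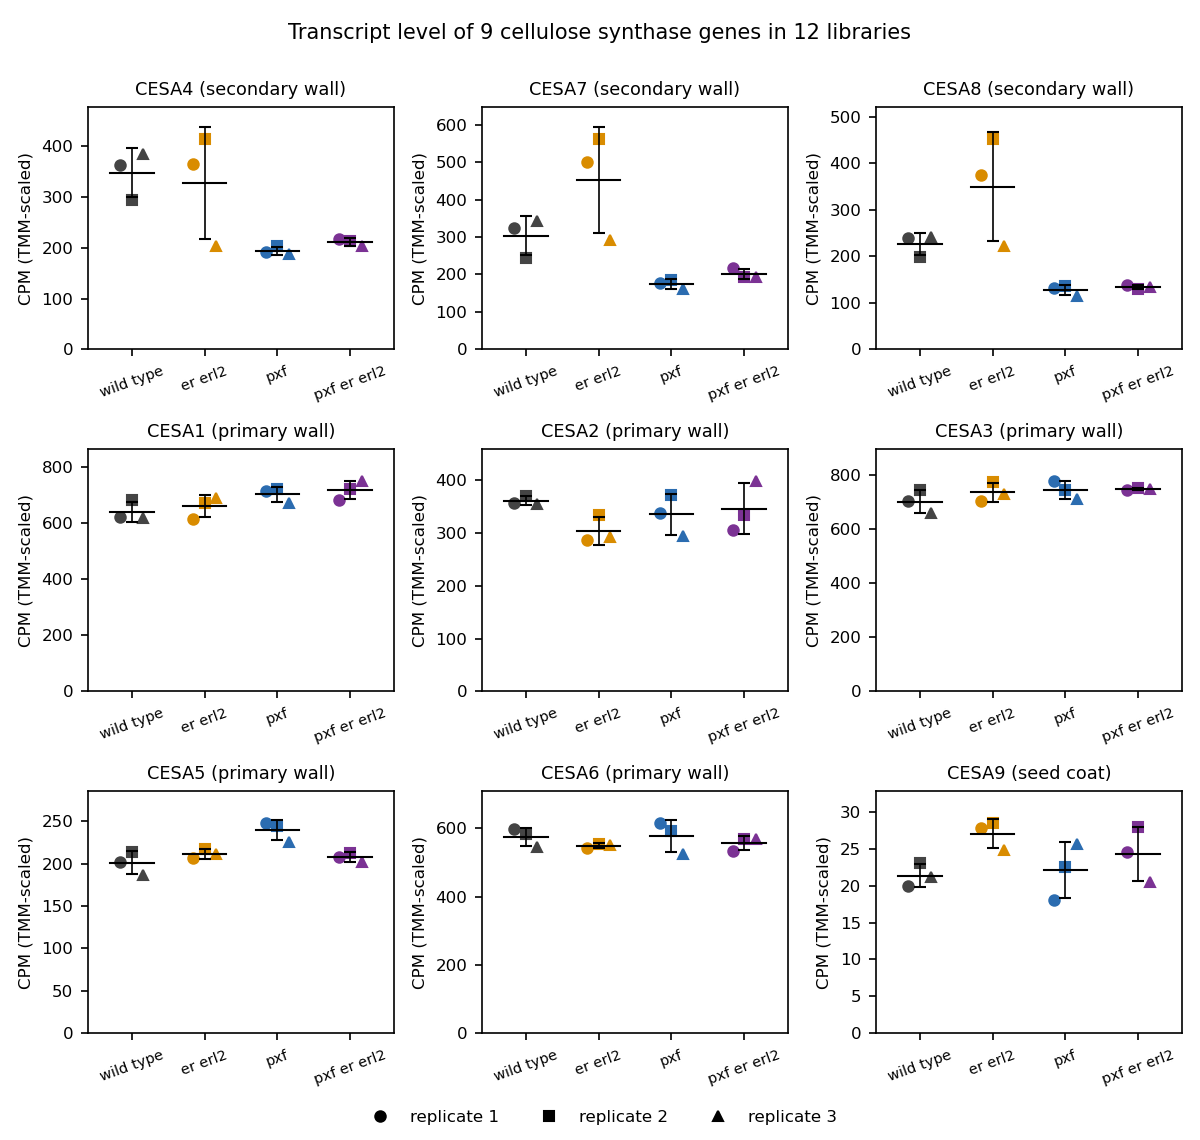
CPM (vertical axes, from 0) of 9 CESA genes in each of the 12 libraries, by genotype; symbols give the replicate, horizontal lines the mean and bars the SD (n = 3). CESA4, CESA7 and CESA8 are low in both genotypes with pxf, er erl2 replicate 3 sits far below the other er erl2 libraries in those panels, and the primary wall panels are nearly level.

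The quintuple mutant also had lower levels than wild type. CESA4 was at 218, 213 and 204 CPM in pxf er erl2, CESA7 at 216, 194 and 193 CPM, and CESA8 at 138, 129 and 134 CPM. All 3 lay below every wild-type library. Against wild type the log2 fold change was -0.72 for CESA4 (SE 0.212, adjusted p = 0.0231), -0.60 for CESA7 (SE 0.209, adjusted p = 0.0473) and -0.76 for CESA8 (SE 0.207, adjusted p = 0.0154). These were 3 of 9 tested members, all lower, against 36.3% of genes called in either direction, 19.9% higher and 16.4% lower. In this genotype the leaf photosynthesis genes summed to 5087 to 8244 CPM, the phloem genes to 579.6 to 823, the periderm suberin genes to 170.2 to 256 and the endodermis genes to 27.4 to 38.4; their part was not tested.

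Leaving out pxf er erl2 replicate 2 (adjusted p = 0.0541) or wild type replicate 3 (0.0525) ended the CESA8 call. The CESA4 call ended when any 1 of the pxf er erl2 libraries, or replicate 1 or 3 of wild type, was left out (0.0567 to 0.0796). CESA7 was called only without wild type replicate 2, er erl2 replicate 2 or er erl2 replicate 3 among the 12 fits with 1 library left out, and its adjusted p reached 0.15 in the others. It was also lost with no filter on low counts (0.0733) and with the replicate number as a block over the 12 libraries (0.0605), whereas the block within these 2 groups alone gave 0.00534. With er erl2 replicate 3 left out, the values were -0.73 for CESA4 (adjusted p = 0.00014), -0.61 for CESA7 (0.00208) and -0.77 for CESA8 (0.000108).

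Between pxf er erl2 and pxf, 0 of 9 members passed the edgeR test, against 10.5% of all genes (5.07% higher and 5.41% lower); 1 had an unadjusted p under 0.05 and DESeq2 called 1. The log2 fold changes of the secondary wall members were 0.13 for CESA4 (95% interval -0.34 to 0.60), 0.20 for CESA7 (-0.26 to 0.67) and 0.06 for CESA8 (-0.40 to 0.52). Every pxf er erl2 library lay above every pxf library for CESA4 and CESA7, and the groups overlapped for CESA8. The intervals leave room for a difference of either sign. The member with the unadjusted p under 0.05 was CESA5, described with the primary wall genes.

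In er erl2 the 3 secondary wall members did not move alike. CESA7 was at 501, 562 and 292 CPM and CESA8 at 374, 452 and 222 CPM, while CESA4 was at 366, 415 and 203 CPM. For CESA7 and CESA8, er erl2 replicates 1 and 2 lay above all wild-type libraries and replicate 3 lay within their range; for CESA4, replicate 1 lay within the wild-type range, replicate 2 above it and replicate 3 below it. The log2 fold change against wild type was 0.57 for CESA7 (SE 0.208, adjusted p = 0.0826), 0.63 for CESA8 (SE 0.205, adjusted p = 0.058) and -0.09 for CESA4 (SE 0.21, adjusted p = 0.816). Thus 0 of 9 members passed with edgeR, against 18.8% of all genes (10.3% higher and 8.44% lower), although 4 had an unadjusted p under 0.05 and DESeq2 called 2, CESA7 (adjusted p = 0.0247) and CESA8 (0.0107). Without er erl2 replicate 3, edgeR gave 0.78 for CESA7 (adjusted p = 0.0019), 0.85 for CESA8 (0.000251) and 0.14 for CESA4 (0.409), so the sign of the CESA4 value rests on that library.

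What separated er erl2 replicate 3 was shared by other wall genes. CTL2, COBL4 and FLA11, whose products accompany secondary wall cellulose, were at 0.517 to 0.531 of the mean of the other two libraries, and the 11 xylan genes at 0.51 to 0.718. Of the vessel cell death genes, named after their values had been seen, BFN1, MC9 and RNS3 were at 0.366 to 0.491, whereas the vessel proteases XCP1 and XCP2 were at 1.06 and 0.975. Leaf photosynthesis genes were at 0.886 to 1.34. The summed level of the 10 leaf genes was 3172 to 3522 CPM in er erl2, above wild type in every library, and its part in the CESA values was not tested.

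The comparison of pxf er erl2 with er erl2 gave the largest fitted falls of CESA7 and CESA8 among the 5 comparisons. CESA8 in pxf er erl2 was at 0.381 of its er erl2 level (log2 fold change -1.39, SE 0.208, adjusted p = 0.000565) and CESA7 at 0.445 (-1.17, SE 0.211, adjusted p = 0.00177). Without er erl2 replicate 3 the values were -1.62 (8.29e-07) and -1.39 (1.82e-05). The groups did not overlap for either gene, both calls held in every fit with 1 library left out, and the values then ranged from -1.62 to -1.16 for CESA8 and from -1.39 to -0.98 for CESA7. The fitted value of CESA4 was -0.63 (SE 0.212, adjusted p = 0.0415), or -0.87 (9.54e-05) without er erl2 replicate 3, and er erl2 replicate 3, at 203 CPM, lay below all pxf er erl2 libraries. In total 3 of 9 members were called, all lower, against 34.3% of genes in either direction, 18% higher and 16.2% lower.

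The CESA4 call against er erl2 was the least stable of the family. It was kept without wild type replicate 2 or er erl2 replicate 3 and lost without any other single library (adjusted p = 0.0546 to 0.153). It was also lost with no filter on low counts (0.0725), with a replicate block (0.0676), and with only the compared groups in the fit (0.121, or 0.116 with the block). Both of these genotypes carry er-105 and erl2-1, so among the named alleles the comparison differs in those of the PXY family alone. Other differences between the lines cannot be told apart from these alleles. Of 50 tested genes around CESA4, 52% were also called in this comparison, against 34.3% of all genes and 32% around CESA8.

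**Figure D2:**
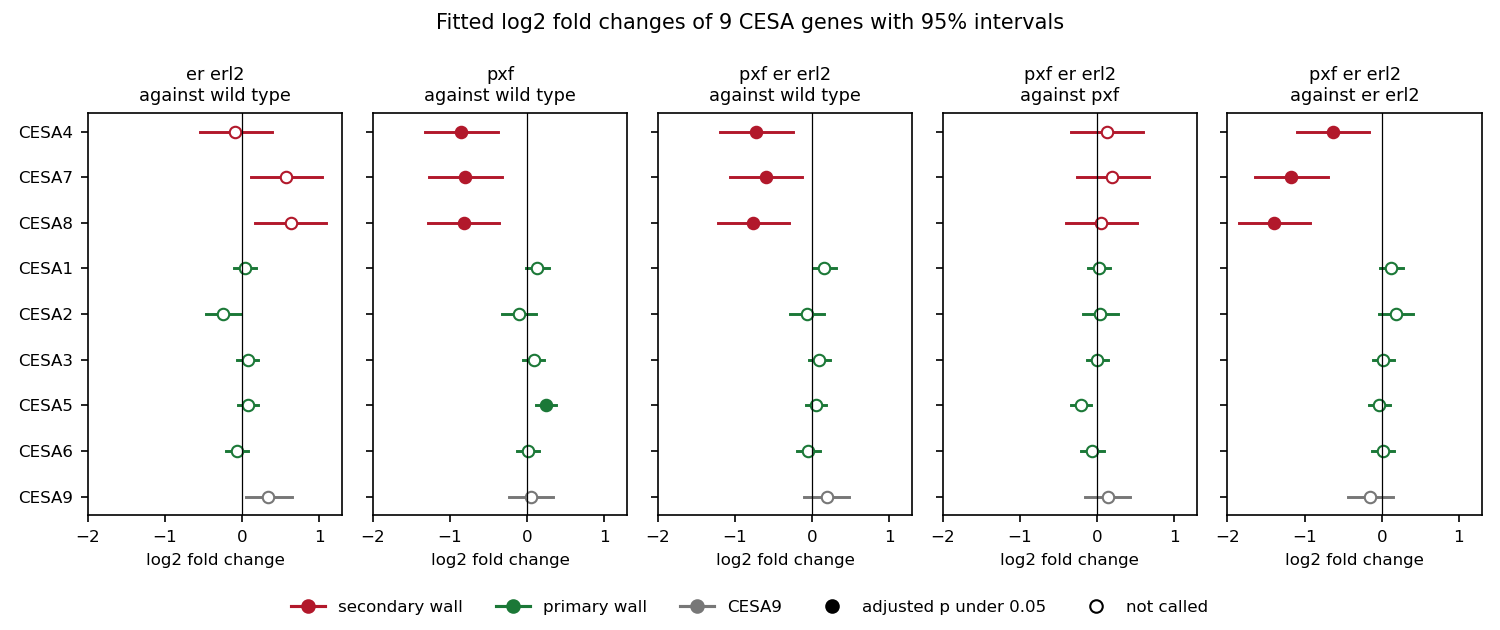
Fitted log2 fold changes (horizontal axes) of 9 CESA genes in 5 comparisons, with 95% intervals; filled points have an adjusted p under 0.05. The secondary wall points are left of 0 in the 3 panels that compare a pxf genotype with one that has PXY, and the only filled primary wall point is CESA5 in pxf against wild type.

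The difference between CESA4 and its partners in er erl2 was constant from library to library. Per kb, the log2 ratio of CESA8 to CESA4 was 0.16, 0.25 and 0.26 in er erl2, against -0.48, -0.43 and -0.55 in wild type, -0.41, -0.43 and -0.57 in pxf, and -0.53, -0.60 and -0.48 in pxf er erl2. The ratio of CESA7 to CESA4 was 0.52, 0.51 and 0.60 in er erl2 and between -0.19 and 0.06 in the other 9 libraries. In er erl2 alone, therefore, CESA4 was the lowest of the 3 per kb in every library, replicate 3 included. The ratio of CESA8 to CESA7 was -0.36, -0.25 and -0.34 in er erl2, within the range of -0.45 to -0.24 in wild type.

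As a share of the 3 secondary wall members, CESA4 made up 38.1 ± 0.267% in wild type, 37.5 ± 1.14% in pxf and 37.2 ± 0.82% in pxf er erl2, but 27.6 ± 0.597% in er erl2 (SD, n = 3). The genotypes pxf er erl2 and er erl2 both carry er-105 and erl2-1, and the shift was seen in the second only. These ratios were examined after their values had been seen and were not tested. Beside CESA4, 17 genes of chosen groups (CESA7, CESA8, the 4 secondary wall accessory genes and the 11 xylan genes) all had positive fitted values in er erl2 against wild type. The values were from 0.09 to 1.41 with a median of 0.66, and 11 of these genes were called, where 10.3% of all genes were called higher. Among the 11 called genes, the calls of FLA11, FLA12, CTL2, PARVUS and FRA8 depended on single libraries, as given with those genes. The remaining called xylan genes, apart from IRX8, were not examined in fits with 1 library left out. Genes of other lists are not among these 17. Of those lists, 2 of 8 general cellulose genes and 1 of 20 regulators had negative values in er erl2. Called lower among them were CSI3 (-0.33, adjusted p = 0.0111) and MYB63 (-0.91, 0.00335).

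**Figure D3:**
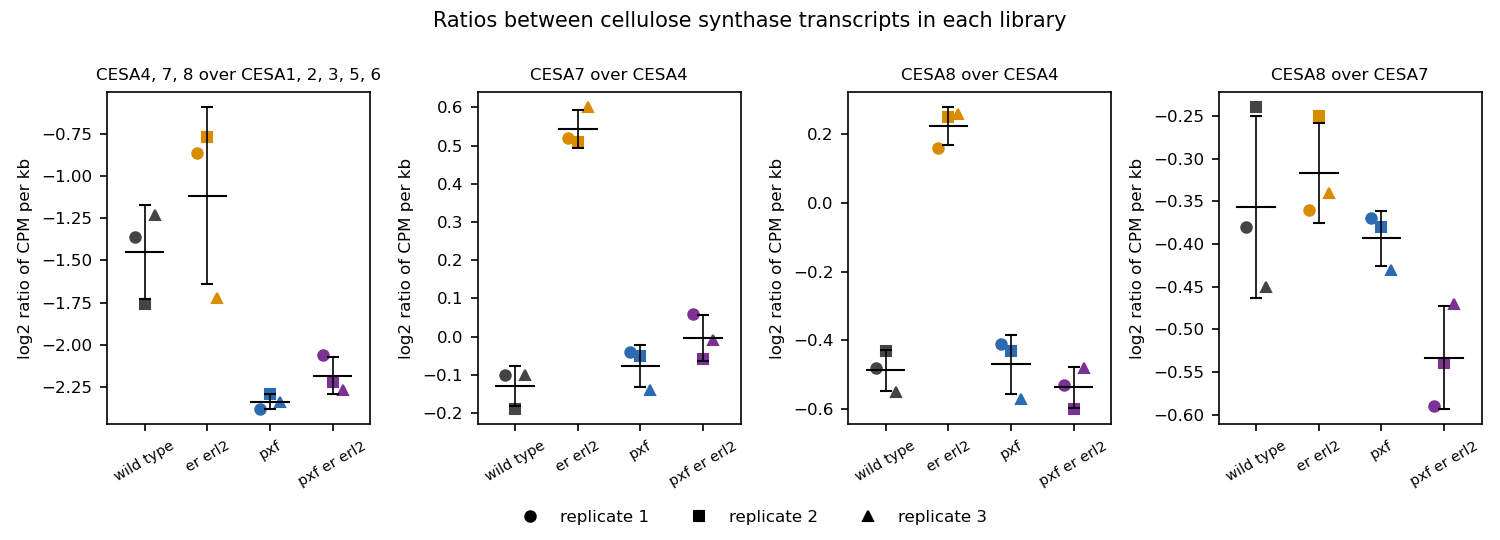
Log2 ratios of CPM per kb of coding sequence (vertical axes) in each library, by genotype, for the summed secondary over the summed primary wall members and for pairs of secondary wall members; lines give the mean and bars the SD (n = 3). The er erl2 libraries stand above all others in the ratios of CESA7 and CESA8 to CESA4, including replicate 3, which is low in the first panel.

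Of the primary wall members, CESA5 alone was called in any comparison by edgeR with all libraries, and the levels of the other 4 moved little across genotypes. Over the 4 genotypes CESA1 (AT4G32410) averaged 639.8 to 717 CPM, CESA3 (AT5G05170) 701 to 747 CPM and CESA6 (AT5G64740) 549 to 578 CPM. CESA1 and CESA3 are the subunits that primary wall complexes cannot do without, and CESA6 takes the remaining place in most of them. CESA2 (AT4G39350), a partner that can replace CESA6, averaged 361 CPM in wild type and 304 CPM in er erl2. All 3 er erl2 libraries of CESA2 lay below all wild-type libraries, and the fitted change of -0.25 (95% interval -0.47 to -0.02) had an adjusted p of 0.12. It was called when only these groups were fitted (-0.27, adjusted p = 0.0278, or 0.0304 with a replicate block), and was -0.24 (0.211) without er erl2 replicate 3.

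CESA5 (AT5G09870), another CESA6-like subunit, rose in pxf. It was at 202, 214 and 187 CPM in wild type, 206, 217 and 211 CPM in er erl2, 248, 244 and 226 CPM in pxf, and 208, 213 and 202 CPM in pxf er erl2. All pxf libraries lay above the other 9. The log2 fold change of pxf against wild type was 0.25 (SE 0.0611, adjusted p = 0.0118), or 1.19 times. It was called in each of the 12 fits with 1 library left out (adjusted p up to 0.0481), but not when only the compared groups were fitted with a replicate block (0.0525). Between pxf er erl2 and pxf the value was -0.20 (SE 0.061, adjusted p = 0.0506).

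In the other 4 primary wall members the fitted values for pxf against wild type were 0.13 for CESA1, -0.11 for CESA2, 0.09 for CESA3 and 0.01 for CESA6, with 95% intervals that reached from -0.33 at the lowest to 0.28 at the highest. Against wild type, pxf er erl2 gave -0.06 to 0.16 for the 5 genes, with adjusted p from 0.0671 to 0.671. The highest was CESA1 (95% interval 0.02 to 0.31), whose pxf er erl2 libraries all lay above those of wild type. DESeq2 called CESA1 there (adjusted p = 0.0466), as did edgeR without wild type replicate 2 (0.0383). Standard errors were 0.0611 to 0.104 for primary wall members and 0.207 to 0.212 for secondary wall members in these comparisons. In the fit of all 12 libraries the test thus resolved smaller changes in the former. Without er erl2 replicate 3, standard errors were 0.064 to 0.105 for primary wall members and 0.0944 to 0.116 for secondary wall members.

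CESA9 (AT2G21770) was counted in every library, between 19.9 and 23.0 CPM in wild type, between 24.8 and 28.5 CPM in er erl2, between 18.1 and 25.7 CPM in pxf, and between 20.5 and 27.9 CPM in the quintuple mutant. The er erl2 libraries lay above those of wild type, with a log2 fold change of 0.34 (95% interval 0.05 to 0.64) and an adjusted p of 0.0965. It was called when only these groups were fitted (0.32, adjusted p = 0.0452), and was 0.38 (0.128) without er erl2 replicate 3. CESA10 (AT2G25540), the closest relative of CESA1, had 1 count in pxf and 1 in pxf er erl2 and was not tested.

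Taken as 2 classes, the summed secondary wall members stood at a log2 ratio to the summed primary wall members, per kb, of -1.36, -1.76 and -1.23 in wild type. The ratio was -2.38, -2.29 and -2.34 in pxf and -2.06, -2.22 and -2.27 in pxf er erl2. In er erl2 it was -0.86, -0.77 and -1.72. Both genotypes with pxf lay below all libraries of the genotypes without it. The difference of er erl2 from wild type in the mean log2 ratio was 0.33 with all libraries and 0.64 without er erl2 replicate 3, and that of pxf er erl2 from er erl2 was -1.07 and -1.37. On a linear scale the mean log2 ratios correspond to 0.366 in wild type, 0.198 in pxf, 0.22 in pxf er erl2 and 0.462 in er erl2. Since the primary wall sum hardly moved, the secondary wall members took 26.8 ± 3.64% of the family's summed CPM per kb in wild type and 16.4 ± 0.426% in pxf (SD, n = 3).

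The interaction asked whether the loss of ER and ERL2 acted differently in the pxf and wild-type backgrounds. On the log2 scale it was 0.22 for CESA4 (95% interval -0.45 to 0.88), -0.37 for CESA7 (-1.02 to 0.29) and -0.57 for CESA8 (-1.21 to 0.08). With edgeR 0 of 9 members passed, against 9.45% of all genes (4.65% higher and 4.8% lower); 1 had an unadjusted p under 0.05, CESA5 (-0.28, adjusted p = 0.0635), and DESeq2 called 0. Without er erl2 replicate 3, CESA8 gave -0.78 with an adjusted p of 0.00717, CESA7 -0.57 with 0.0744, CESA4 -0.01 with 0.979 and CESA5 -0.25 with 0.145.

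The sequence upstream of the secondary wall members was searched for binding motifs known from their regulators. SMRE, bound by MYB46 and MYB83, was searched as ACC, then A or T, then A, then A or C, then C or T. It was searched together with TERE, known from genes of vessel differentiation, each on both strands in the 300 bases before the annotated start. SMRE was found in 33.9% of 27443 upstream windows of this length in the genome; it occurred once upstream of CESA1, CESA4, CESA8 and CESA9, at 2 places upstream of CESA5, and not in the windows of CESA2, CESA3, CESA6, CESA7 and CESA10. TERE was found in 0.43% of windows and, within the family, in that of CESA4 alone, 20 to 10 bases before the annotated start. It is shown with its flanks in capitals for the match, at chr5:17714361-17714389 on the plus strand of TAIR10.1.
CESA4 TERE site: acataataaCTTGAAAGCTActctaagtt
The windows of CESA7 (chr5:5741501-5741800, minus strand) and CESA8 (chr4:10316887-10317186, minus strand) are shown because these genes stayed closer to each other than to CESA4 in er erl2; capitals mark SMRE in CESA8, and the CESA7 window, printed without capitals, holds TATAAA 73 to 68 bases before the start, as 37% of all windows do at some place.
CESA7 upstream: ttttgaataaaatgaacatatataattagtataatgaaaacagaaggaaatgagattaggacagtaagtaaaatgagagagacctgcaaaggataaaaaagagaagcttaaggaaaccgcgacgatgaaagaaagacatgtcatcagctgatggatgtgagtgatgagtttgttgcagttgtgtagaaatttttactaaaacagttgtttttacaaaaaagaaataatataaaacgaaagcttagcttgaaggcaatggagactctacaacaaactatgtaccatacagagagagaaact
CESA8 upstream: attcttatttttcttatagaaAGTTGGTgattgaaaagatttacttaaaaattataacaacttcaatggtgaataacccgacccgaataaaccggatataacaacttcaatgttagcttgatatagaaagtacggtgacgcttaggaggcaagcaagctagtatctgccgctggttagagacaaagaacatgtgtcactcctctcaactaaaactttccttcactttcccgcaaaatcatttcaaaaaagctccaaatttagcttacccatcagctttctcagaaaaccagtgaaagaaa
Coordinates are those of TAIR10.1 as RefSeq gives them; the submitters' processing notes name TAIR10, and the count files hold no coordinates. The neighbouring gene AT5G44020 overlaps the 300-base window upstream of CESA4. Its counts per library were between 5 and 16 in wild type and between 44 and 81 in er erl2. They were between 20 and 21 in pxf, and between 29 and 35 in the quintuple mutant. CESA4 had 2309 to 5105 counts in the libraries of wild type and er erl2. Whether reads of these genes were exchanged was not tested.

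Genes that act with secondary wall CESA proteins were counted next. Of the 4 accessory genes, 3 rose in er erl2 (10.3% of all genes did) and 2 fell in pxf and in pxf er erl2 against wild type (7.97% and 16.4%), while FLA11 (adjusted p = 0.101 and 0.0557) and FLA12 (0.308 and 0.569) did not pass there. All 4 fell from er erl2 to pxf er erl2 (16.2% of all genes did), with a median of -1.49, where the median of all tested genes was 0.005. The 3 that rose in er erl2 were FLA12, FLA11 and CTL2, whose calls were lost in 3, 6 and 11 of the 12 fits with 1 library left out (adjusted p up to 0.0722, 0.106 and 0.13), and in pxf the call of CTL2 was lost in 5 (up to 0.0865). Those libraries were for FLA12 wild type replicates 1 and 2 and er erl2 replicate 2, for FLA11 the wild-type libraries, er erl2 replicates 1 and 2 and pxf er erl2 replicate 2, for CTL2 in er erl2 any but er erl2 replicate 3, and for CTL2 in pxf wild type replicates 1 and 3 and all pxf libraries. Without er erl2 replicate 3, the er erl2 values were 1.61 for FLA12, 0.96 for FLA11 and 0.92 for CTL2. COBL4 (irx6), a COBRA-like wall protein, was between 95.5 and 119.8 CPM in wild type and between 111 and 226 CPM in er erl2. With the PXY family mutated it was lower, between 56.9 and 61.1 CPM in pxf and between 55.8 and 66.7 CPM in the quintuple mutant. Its log2 fold change in pxf er erl2 against wild type was -0.87 (adjusted p = 0.0109) and against er erl2 -1.54 (0.000414), both kept in every fit with 1 library left out; in pxf it was -0.92 (0.0142), lost without pxf replicate 1 (0.0508). These libraries include er erl2 replicate 3, the lowest of its group.

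Xylan, the main hemicellulose of the secondary wall, is made by enzymes of which 11 were listed. In er erl2 8 rose and 0 fell, in pxf 6 fell and 0 rose, in pxf er erl2 against wild type 7 fell and 0 rose, and from er erl2 to pxf er erl2 all 11 fell (median -0.96). The shares of all genes called in these directions were 10.3% higher in er erl2, 7.97% lower in pxf, 16.4% lower in pxf er erl2 and 16.2% lower against er erl2. Of those that rose in er erl2, PARVUS lost its call in 10 and FRA8 in 9 of the 12 fits with 1 library left out (adjusted p up to 0.131 and 0.147); without er erl2 replicate 3 their values were 0.95 (0.0341) and 0.91 (0.000617). IRX15, needed for normal xylan chain length, was at 64.4 to 73.8 CPM in wild type and 31.7 to 37.7 in pxf, a log2 fold change of -1.04 (adjusted p = 0.00814). GUX1, which adds glucuronic acid to xylan, was at 54.4 to 64.4 CPM in wild type and 31.5 to 34.1 in pxf (-0.85, adjusted p = 0.00559). In pxf er erl2, IRX15 was at -1.16 (0.00236) and GUX1 at -0.86 (0.00263) against wild type, and IRX8 rose in er erl2 (0.92, adjusted p = 0.0019, or 1.1 without er erl2 replicate 3). The calls of IRX15, GUX1 and IRX8 named here were kept in every fit with 1 library left out.

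Among the 3 laccases of lignin formation in xylem, all rose in er erl2, where 10.3% of all genes did. LAC11 (0.76, adjusted p = 0.0489) lost its call in 9 of the 12 fits with 1 library left out (up to 0.162; all but those without er erl2 replicate 3, pxf replicate 1 or pxf replicate 3), and LAC4 (1.19, 0.00598) in the fit of these groups alone (0.0661). LAC17 was between 20.3 and 22.8 CPM in wild type and between 41.8 and 53.9 CPM in er erl2 (1.18, adjusted p = 1.69e-05), with no call lost when 1 library was left out. In pxf, LAC17 alone was called, at -0.50 (0.013); leaving out pxf replicate 1 (0.0532) or wild type replicate 3 (0.0504) ended the call.

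Regulators of secondary walls went in both directions in pxf. Of 20 tested, 6 rose and 5 fell, where 13% and 7.97% of all genes did, and in pxf er erl2 5 rose and 5 fell, where 19.9% and 16.4% did. The falling genes included the NAC factors of fibres, NST1 (19.7 to 27.0 CPM in wild type, 1.38 to 2.89 in pxf, log2 fold change -3.64, adjusted p = 0.000111) and SND1 (7.57 to 14.9 and 0.691 to 1.17 CPM, -3.70, adjusted p = 0.00273). Both calls were kept whichever library was left out.

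The rising genes included NAC factors of vessels, named after their values had been seen. VND1, VND3, VND6 and VND7 were called higher in pxf and in pxf er erl2, while VND2, VND4 and VND5 were called in neither. VND1 rose by 0.71 in pxf (adjusted p = 0.0483) and 0.81 in pxf er erl2 (0.0162). These calls were lost in 9 and 2 of the 12 fits with 1 library left out. VND6 rose by 0.60 in pxf (0.0282, lost in 4 of these fits) and 1.04 in pxf er erl2 (0.000538, lost in 0). VND3 rose by 0.80 in pxf (adjusted p = 0.00853) and 0.97 in pxf er erl2 (0.00125), and VND7 by 0.88 (0.012) and 0.96 (0.00377). The pxf value of VND7 lost its call without pxf replicate 3 (0.0559) or with a replicate block within these groups (0.0605). The other calls of VND3 and VND7 were kept in all fits with 1 library left out. MYB103, a MYB factor active in cells that lay down secondary walls, fell by 1.24 in pxf (0.0131, lost without pxf replicate 3, 0.0569) and by 1.14 in pxf er erl2 (0.0114). MYB46 fell by 0.79 in pxf (0.0194, lost in 3 of the 12 fits with 1 library left out) and was not called in pxf er erl2 (-0.35, 0.202). MYB83 rose by 0.70 in pxf (0.0484, lost in 9 of these fits) and by 0.75 in pxf er erl2 (0.0241, lost in 4). The 5 genes of vessel cell death had fitted values of -0.59 to 0.27 in pxf, with adjusted p of 0.0971 or more. In pxf er erl2 their values were -0.70 to 0.30. There 1 of the 5 was called higher, XCP1 (0.30, adjusted p = 0.0481), where 19.9% of all genes were. That call was not examined in fits with 1 library left out.

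Of the general cellulose genes, 8 were tested. In er erl2 3 rose and 1 fell, where 10.3% and 8.44% of all genes did. In pxf 0 rose and 2 fell (13% and 7.97%), and in pxf er erl2 0 rose and 3 fell (19.9% and 16.4%). CSI3 fell in all 3 mutants, with -0.33 (adjusted p = 0.0111), -0.27 (0.0267) and -0.24 (0.0272). Its calls were lost in 0, 5 and 4 of the 12 fits with 1 library left out. The sucrose synthases SUS1 and SUS4, which can supply UDP-glucose, moved most. SUS1 was between 440.2 and 461 CPM in wild type, between 692 and 1086 CPM in er erl2, between 247 and 317 CPM in pxf, and between 224 and 317 CPM in the quintuple mutant. SUS4 was between 300.1 and 360.3 CPM in wild type, between 720.4 and 789.8 CPM in er erl2, between 381 and 423 CPM in pxf, and between 163 and 264 CPM in the quintuple mutant. Against wild type, SUS1 rose by 1.07 in er erl2 (adjusted p = 0.00233) and fell by 0.81 in pxf er erl2 (0.00544), and SUS4 rose by 1.24 in er erl2 (0.00026; without er erl2 replicate 3 these rises were 1.22 and 1.25) and fell by 0.70 in pxf er erl2 (0.00481, lost with a replicate block within these groups, 0.0622). SUS1 fell by 0.73 in pxf (0.0175), a call that ended when pxf replicate 1, pxf replicate 3 or wild type replicate 3 was left out (0.0544 to 0.0687).

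**Figure D4:**
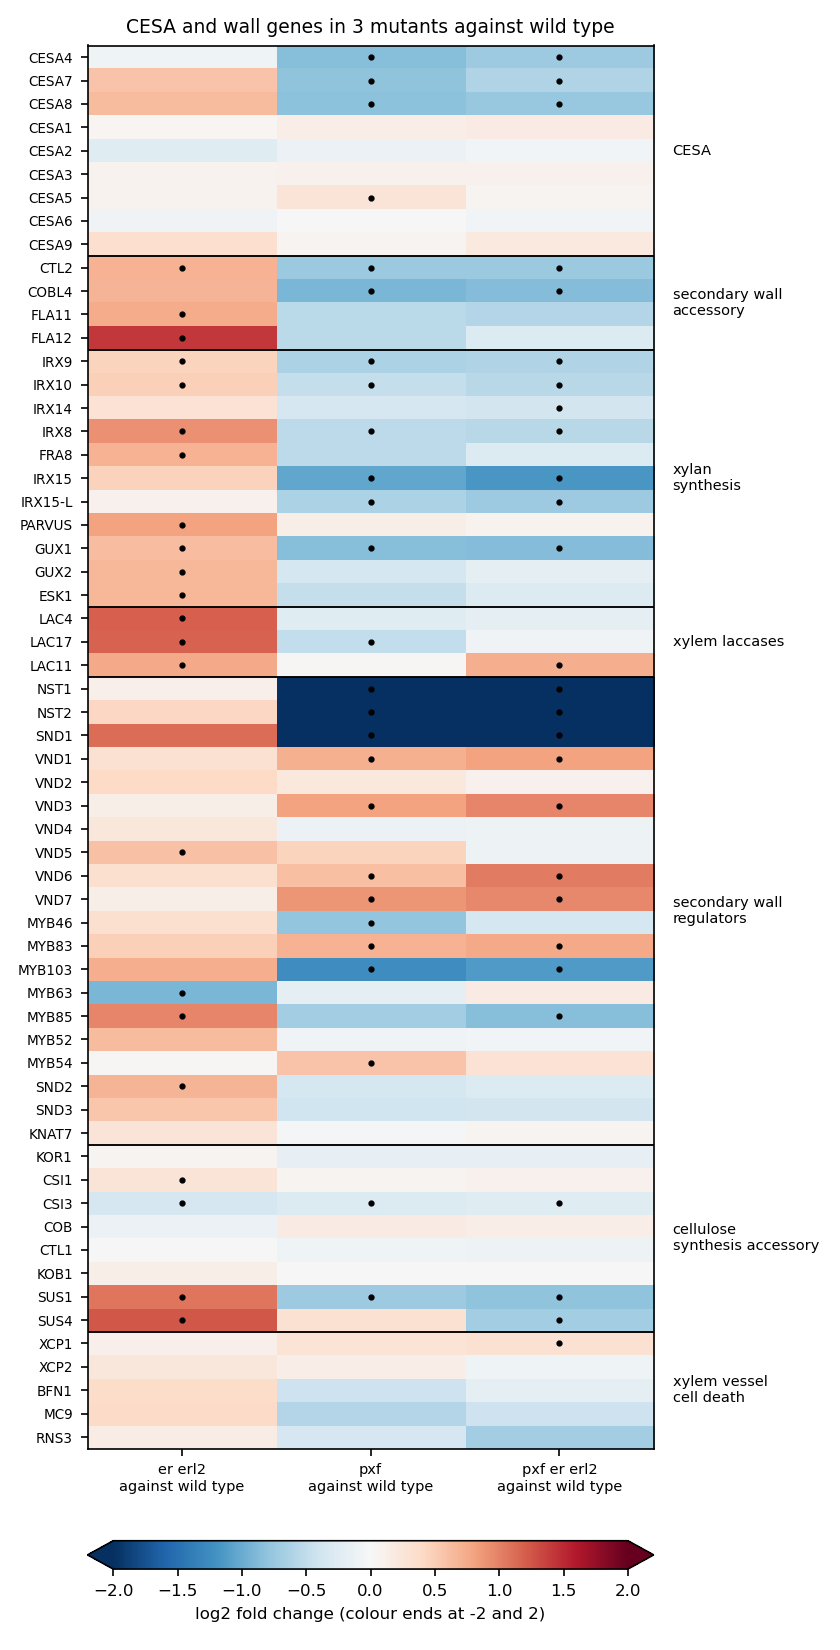
Colour gives the fitted log2 fold change against wild type of each CESA gene and of 51 other wall and xylem genes (rows, grouped by list) in 3 mutants (columns); dots mark an adjusted p under 0.05. Blue is lower and red higher, and colours end at -2 and 2. CESA4, CESA7 and CESA8 are blue in pxf and pxf er erl2, as are the secondary wall accessory genes and all xylan genes but PARVUS. CESA4 is not red in er erl2, where CESA7, CESA8, the secondary wall accessory genes and the xylan genes have positive values.

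The genes most like the secondary wall members were found by the root mean square (RMS) difference of centred log2 CPM from the mean profile of CESA4, CESA7 and CESA8 over the 12 libraries, among 18352 genes of at least 1 CPM. The nearest 5 were AT2G28315 (RMS 0.0907), IRX9 (0.122), AT1G75280 (0.124), AT4G27435 (0.132) and RWA1 (0.133). IRX9 is a glycosyltransferase of the xylan backbone and RWA1 acts in wall polysaccharide acetylation. The members themselves lay at 0.0868 (CESA7), 0.128 (CESA8) and 0.195 (CESA4) from their own mean, so CESA4 was farther from it than these 5 genes. CTL2 ranked at 9, FLA11 at 10, COBL4 at 24 and MYB46 at 28, but FLA12 at 4189, SND1 at 17870 and NST1 at 17908. Primary wall CESA genes ranked from 7637 to 10426. The points of this measure share the same 12 libraries, and nearness is a description of these profiles.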

How the data were processed

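Poly-A RNA of 12 libraries (4 genotypes, 3 each) was sequenced. The authors deposited raw counts per gene; the submitters' processing notes name HISAT2 2.0.5, featureCounts 1.5.0-p3 and TAIR10, with the handling of strand and of reads matching several places not given in the sources used here. Per the labels' protocols, libraries were made from 1 µg of RNA with a NEBNext Ultra kit. Groups and replicate numbers came from the titles.

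Counts were analysed in R 4.3.3 with edgeR 4.0.16: filterByExpr kept 19236 of 32833 loci (99.9% of counts), libraries were scaled by TMM (0.985 to 1.01), and a quasi-likelihood model with a term per genotype was fitted to all 12 libraries, with Benjamini-Hochberg adjustment over all tested genes. Genes at an adjusted p under 0.05 are called, or said to have risen or fallen. The biological coefficient of variation was 11.6%. Values of single genes are TMM-scaled CPM, and levels of different genes were compared per kb of coding sequence. The test was first run on simulated data. Replicate files differed by more than counting noise (chi-square per degree of freedom 3.21 to 18). Alternatives were DESeq2 1.42.0, RLE scaling, library totals, no filter, fits of the compared groups alone, a replicate block and leaving out each library.

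Replicate numbers were checked by correlating deviations from the group means of same-numbered libraries. Only between wild type and pxf er erl2 were all 3 correlations over 0.1 (0.138, 0.107 and 0.27); the labels give no basis for pairing. The members and lists were chosen with earlier results of these data known. The family's genes are all described. Of other lists, at most 3 called genes per comparison, in order of fold change, could be named. VND1, VND2, VND3, VND4, VND6, VND7, MYB46, MYB83, MYB103, BFN1, MC9 and RNS3 were added after their values were seen. Of 12 general cellulose genes listed, 4 were left out because the reference holds no such name for their loci, and 1 of 21 regulators was not tested. Sequences came from RefSeq, assembly TAIR10.1. Figures were drawn with matplotlib 3.10.9.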

Additional observations from a re-analysis of the deposited data

Results flagged for a closer look

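In 6 of 51 listed wall and xylem genes tested, where 9.45% of all genes were called, the effect of losing ER and ERL2 differed between the wild-type and pxf backgrounds by the interaction term of the edgeR model, given here as the log2 effect in pxf minus that in wild type. SUS4 had an interaction of -2.23 (adjusted p = 9.99e-05), with levels between 300.1 and 360.3 CPM in wild type, between 720.4 and 789.8 CPM in er erl2, between 381 and 423 CPM in pxf, and between 163 and 264 CPM in the quintuple mutant. SUS1 had -1.15 (0.0194), MYB63 1.25 (0.00675), VND5 -1.13 (0.00891) and LAC17 -0.75 (0.0161). These 5 calls were kept in every fit with 1 library left out. IRX8 had -0.94 (0.0237), lost without wild type replicate 2 or 3, er erl2 replicate 1, pxf replicate 1 or 3, or pxf er erl2 replicate 3 (0.0507 to 0.0568).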

How the results depend on the processing

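No direction of a called value reversed in any alternative. Ratios between members moved by less than the larger SD of the groups compared. For the secondary to primary ratio in er erl2 that SD was 0.526 and was widened by replicate 3, so it is a loose limit. Without that library the difference of this ratio from wild type was 0.64. The count of CESA members called changed in several settings. For er erl2 against wild type it was 0, but 2 with DESeq2 or with only the compared groups, and 1 when these also had a replicate block. For pxf er erl2 against pxf it was 0, but 1 with library totals, no filter, DESeq2 or a replicate block over all 12 libraries. In the settings other than leaving out 1 library, it was from 2 to 4 for pxf er erl2 against wild type. In the same settings it was from 3 to 4 for pxf against wild type and from 2 to 3 for pxf er erl2 against er erl2. With 1 library left out, the counts ranged from 0 to 2 for er erl2 against wild type, from 1 to 4 for pxf against wild type (4 with all libraries), from 0 to 4 for pxf er erl2 against wild type (3), from 0 to 1 for pxf er erl2 against pxf (0), from 2 to 3 for pxf er erl2 against er erl2 (3) and from 0 to 1 for the interaction (0).

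Over all genes, pxf against wild type gave 4041 calls, 2578 with the compared groups alone and a replicate block, and 2497 to 4729 with 1 library left out. For pxf er erl2 against pxf these were 2016, 442 and 1192 to 2244, and for the interaction 1818 and 1119 to 1747 with 1 library left out. The cause was not tested. In the other comparisons leaving out 1 library gave 2578 to 4270 calls for er erl2 against wild type, 5332 to 7465 for pxf er erl2 against wild type and 5283 to 6693 for pxf er erl2 against er erl2. Outside the wild type and pxf er erl2 pair, replicate numbers are shared in name only: over all 18 correlations, that pair included, 5 were over 0.1 (-0.367 to 0.27), and 2 of 12 libraries correlated best with their own number. Alternatives with the block in fits of the compared groups, exon length and the ratios without 1 library were chosen after seeing the data. With 3 replicates and all 12 libraries in the fit, the 95% intervals of the secondary wall members are wider than those of the primary wall members. Small differences in the secondary wall members were not detectable. Their standard errors in pxf and pxf er erl2 against wild type were 0.207 to 0.212, and 0.0944 to 0.116 without er erl2 replicate 3.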

Other observations

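Genes beside CESA4 on chromosome 5 were also called often in er erl2. Of the 25 tested genes on each side of it, 18 of 50 (36%) were called in er erl2 against wild type, where 18.8% of all genes were, and 26 of 50 (52%) in pxf er erl2 against er erl2, where 34.3% were; 2 of them differed at least 8-fold in each. Around CESA7 the counts were 16 of 50 (32%) and 24 of 50 (48%), around CESA9 17 of 50 (34%) and 20 of 50 (40%), and around CESA8 2 of 50 (4%) and 16 of 50 (32%). These windows were chosen after the CESA4 ratios had been seen, were not tested, and hold neighbours that are not independent. Between each secondary wall CESA gene and the nearest mutated gene on its chromosome, 1000 protein-coding genes stood for CESA7 (ERL2), 1087 for CESA8 (PXL2) and 1888 for CESA4 (PXY). CESA10 lay 81 genes from ER, CESA3 217 and CESA5 244 from ERL2, and CESA6 340 from PXY.

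Within the CESA6-like subunits, the share of CESA5 was highest in pxf. CESA5 made up 17.5 ± 0.584% of the summed CPM per kb of CESA2, CESA5, CESA6 and CESA9 in wild type (SD, n = 3). The share was 19.6 ± 0.201% in er erl2, 20.6 ± 0.662% in pxf, and 18.6 ± 1.27% in the quintuple mutant. The log2 ratio of CESA6 to CESA1 was -0.23 to -0.06 in wild type and -0.40 to -0.34 in pxf er erl2, which did not overlap. Neither was tested.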
